A study of Mus musculus with 6 samples.

Results

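The genes described here are 10 enzymes and lipid droplet proteins of hepatic triglyceride synthesis: Gpam, Agpat2, Agpat3, Lpin1, Lpin2, Lpin3, Mogat1, Dgat1, Dgat2 and Pnpla3. They are 10 of the 18193 genes with a named probe set, chosen by name for their place in the pathway, with earlier results of these data known. All probe sets that carry 1 of these symbols alone were taken, 20 of the 34945 probe sets with a single symbol. A probe set is a group of short oligonucleotides on an Affymetrix array that together report 1 transcript or gene. Livers were profiled on 6 arrays, 3 labelled Mig-6 d/d and 3 labelled Mig-6 f/f. All mice were males aged 8 weeks on a mixed background, fed standard chow and then fasted for 24 h, so the fasted state is shared by both genotypes and no fed liver was compared. Errfi1 encodes Mig-6, which binds the epidermal growth factor receptor and damps its signal. The labels write f/f and d/d for the alleles and name no Cre driver. Nor do they state that the arrays come from different mice, so every p-value reflects the spread among these samples, which may be technical.

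Liver builds most of its triglyceride by the glycerol phosphate pathway. An acyl chain is placed on glycerol 3-phosphate by a GPAT enzyme, a further chain is added by an AGPAT enzyme to give phosphatidate, a lipin removes the phosphate to leave diacylglycerol, and a DGAT enzyme adds the last chain. Diacylglycerol and phosphatidate also feed phospholipid synthesis, and during a fast the pathway takes up fatty acids that adipose tissue releases. Lipin-1 is in addition a nuclear coactivator that works with PGC-1alpha and PPARalpha, and its gene is induced by fasting in mouse liver.

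Values are deposited intensities, a linear brightness in arbitrary units, or log2(intensity + 16) after quantile normalization. Each difference is the d/d mean minus the f/f mean on that log2 scale with the standard error (SE) of limma and n = 3 arrays per genotype, and understates the change of dim probe sets. Adjusted p-values are Benjamini-Hochberg values over all genes, or over all probe sets where a probe set other than the one standing for its gene is given. Precision is limited by the small number of arrays. Median intensities of the arrays lay between 55.6 and 65.4. Errfi1, the targeted gene, read 68.0, 61.8 and 59.6 in d/d livers, against 5371, 5424 and 5686 in f/f livers, so each array matched its label. Among the arrays f/f replicate 3 was the least like the rest, with a mean correlation of 0.963 with the other arrays where these had 0.978 to 0.981, and a mean intensity of 3807 on the 18S ribosomal RNA controls where the others had 218.0 to 455.2. The hepatocyte list had 6 of its 7 markers on the array, all above the dim limit, with summed intensities of 113100 to 114500 in d/d livers and 112500 to 115300 in f/f livers. On the normalized log2 scale 5 of these 6 were counted as negative and 0 passed the threshold. That count includes Alb, which had 15.08 in every array, so its sign there carries no information. Quantile normalization gives probe sets of equal rank the same value in each array, so this scale cannot show a difference for Alb. Ttr, with means of 14.64 in d/d livers and 14.66 in f/f livers, hardly differed there. In deposited intensity Alb, Apoa1 and Ttr had higher means in d/d livers, 35390, 29280 and 25760 against 33900, 27880 and 25470. Tat, Cps1 and Hnf4a had lower ones. Tat averaged 6140 ± 588 in d/d livers and 8438 ± 1540 in f/f livers (SD, n = 3), without overlap. Of 6 adipocyte markers 4 were on the array, with summed intensities of 152.8 to 178.5 in d/d livers and 170.3 to 261.2 in f/f livers. Adipoq and Lep lay under the dim limit, with means of 21.9 and 23.8 in d/d livers and 26.9 and 26.0 in f/f livers. Retn and Cidec lay above it and both read lower, with means of 59.0 and 60.8 in d/d livers and 77.1 and 77.9 in f/f livers, and 0 of the 2 passed the threshold. For Retn the higher f/f mean rests on f/f replicate 3, at 111.3, where f/f replicates 1 and 2 read 62.5 and 57.4. Stellate cell markers summed to 2282 to 2890 in d/d livers and 2912 to 3577 in f/f livers, with 5 of 6 lower and 0 past the threshold. Kupffer cell markers summed to 1902 to 2475 in d/d livers and 2136 to 3187 in f/f livers, with 6 of 7 lower. Of the other lists, endothelial cell had 2 of 5 lower, red cell 2 of 3, cholangiocyte and pancreas acinar cell 1 of 2 each, and enterocyte 1 of 3. Enterocyte markers summed to 8963 to 12570 in d/d livers and 5530 to 9655 in f/f livers. Most of that sum was Apoa4, with means of 10650 in d/d livers and 6339 in f/f livers and overlap between the genotypes. Fabp2 went the other way without overlap, with means of 525.6 in d/d livers and 767.1 in f/f livers. Mogat2 averaged 69.8 and 69.2, and Vil1, under the dim limit, 25.8 and 28.8. The counts of lower markers cover those above the dim limit, on the normalized log2 scale. The part of any of these lists in the results below was not tested. In whole liver, fewer cells of a type and less RNA per cell cannot be told apart.

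Of the 10 genes, 9 had a probe set above the dim limit of 48.4 intensity units and entered the test of 13718 genes; Mogat1 did not. In limma with Benjamini-Hochberg adjustment 0 of the 9 passed an adjusted p of 0.05, where 13 of all genes did (0.0948%). At an unadjusted p under 0.05 there were 2, Agpat2 and Dgat2, where 7.84% of all genes reached it. Agpat2 and Agpat3 lay lower in d/d livers without overlap between the genotypes, as 6.82% of all genes did, and Dgat2 lay higher without overlap, as 7.86% of all genes did. The 9 genes were 4 with a negative and 5 with a positive difference, with a median log2 difference of 0.046 beside -0.015 over all genes tested. With each probe set tested on its own, 0 of the 19 above the dim limit passed, where 17 of 22689 did (0.0749%), and 5 had an unadjusted p under 0.05, where 7.6% of all probe sets did: 1 of Gpam, that of Agpat2, 2 of Lpin2 and 1 of Dgat2. The plot of every probe set by array shows these shifts beside the spread within each genotype.

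**Figure D1:**
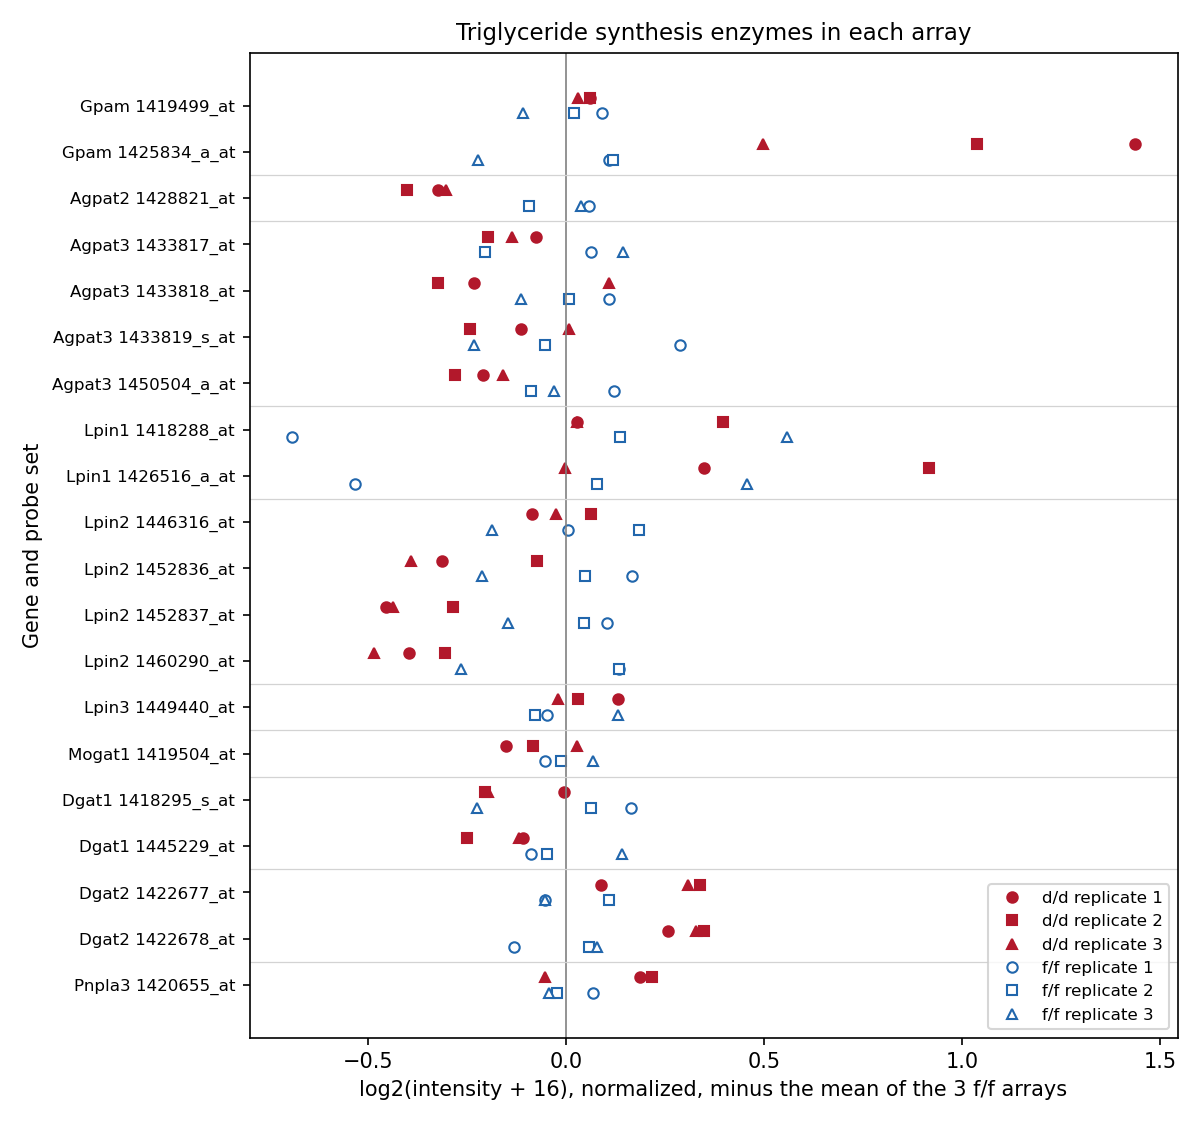
Normalized log2(intensity + 16) of the 20 probe sets in each array (filled red, d/d; open blue, f/f; symbol shape, replicate number), given relative to the mean of the 3 f/f arrays. The d/d arrays of Gpam 1425834_a_at sit to the right of all f/f arrays, those of Agpat2 to the left, and Lpin1 is spread widely within both genotypes.

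Gpam encodes the mitochondrial glycerol 3-phosphate acyltransferase GPAT1, which starts the pathway, and its 2 probe sets gave different answers. Probe set 1425834_a_at read 807, 616 and 416 in d/d livers, against 310.3, 313 and 251 in f/f livers. All d/d arrays were above all f/f arrays, but the d/d arrays differed among themselves by far more than the f/f arrays did, with means of 613 ± 195 in d/d livers and 291 ± 35.0 in f/f livers (SD, n = 3). Its log2 difference was 0.99 ± 0.23 (SE), 1.99 times higher in d/d livers on the scale with 16 added, and it did not pass over all probe sets (limma, adjusted p = 0.252, unadjusted p = 0.00219). Probe set 1419499_at, the brighter one that stood for the gene, read 1493, 1511 and 1474 in d/d livers, against 1524, 1494 and 1319 in f/f livers. There the genotypes overlapped, and the log2 difference was 0.049 ± 0.10 with a 95% interval of -0.19 to 0.29 (limma, adjusted p = 0.929).

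The ratio between the Gpam probe sets was compared within each array after these values had been seen. On the log2 scale, 1425834_a_at minus 1419499_at was -0.87, -1.27 and -1.79 in d/d livers, against -2.24, -2.17 and -2.37 in f/f livers. The genotypes did not overlap, and the difference of 0.95 had a two-sided exact permutation p of 0.1, the smallest that 3 against 3 allows. Of 5563 genes with several probe sets above the dim limit, 30 (0.539%) had probe sets whose differences lay at least as far apart as those of Gpam. Since the values had been seen first, the permutation p and this share are descriptions and add no separate evidence. The plot of intensities by array shows both probe sets.

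**Figure D2:**
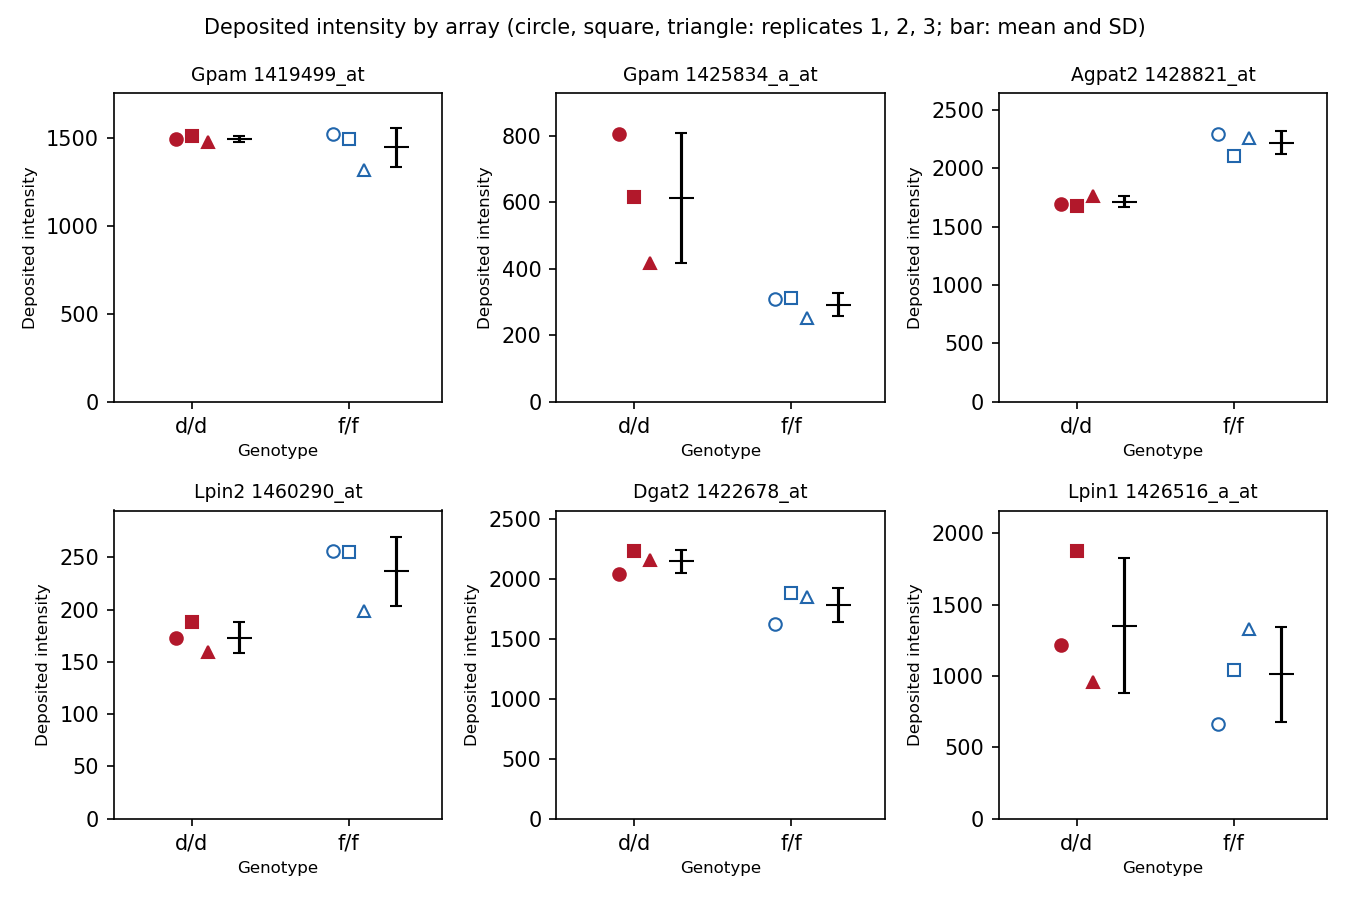
Deposited intensity, a linear scale from 0, for 6 probe sets in 3 d/d arrays (filled red) and 3 f/f arrays (open blue), with the mean and SD as black bars. Gpam 1425834_a_at and Dgat2 read higher in every d/d array than in any f/f array, Agpat2 and Lpin2 1460290_at lower, and Gpam 1419499_at and Lpin1 overlap.

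RefSeq lists 2 separate starts for mouse Gpam, and the 250 bases before each are shown because the probe sets of this gene gave different values. No source used here says which start the transcripts behind either probe set use. The accession behind 1419499_at is a RefSeq transcript of Gpam and that behind 1425834_a_at is not among them. The upstream start, Gpam start 1, is preceded by chr19:55127239-55127488 and the downstream start, Gpam start 2, by chr19:55099478-55099727, both on the minus strand of GRCm38.p6 and both written 5′ to 3′ along the gene. Capitals mark matches, on either strand, to the CCAAT box (CCAAT) or the GC box (GGGCGG).
Gpam start 1: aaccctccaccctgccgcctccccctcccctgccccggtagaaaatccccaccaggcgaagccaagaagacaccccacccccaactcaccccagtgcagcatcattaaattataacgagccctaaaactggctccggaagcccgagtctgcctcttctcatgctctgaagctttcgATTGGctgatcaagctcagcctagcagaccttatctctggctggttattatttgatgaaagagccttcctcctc
Gpam start 2: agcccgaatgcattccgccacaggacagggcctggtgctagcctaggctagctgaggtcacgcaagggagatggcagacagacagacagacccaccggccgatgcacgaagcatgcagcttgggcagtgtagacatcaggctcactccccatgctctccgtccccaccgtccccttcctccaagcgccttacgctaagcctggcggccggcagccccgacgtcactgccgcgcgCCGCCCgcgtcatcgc
The bases before start 1 hold 1 CCAAT box, on the opposite strand, and those before start 2 hold 1 GC box, also on the opposite strand. Neither holds a TATA box (TATAAA), the E-box CACGTG or the sterol regulatory element TCACNCCAC in these letters. Among 32851 mouse promoter windows of 250 bases, 33.8% hold the CCAAT box, 32.7% the GC box, 12.4% the TATA box, 6.02% the E-box and 1.05% the sterol element. GC content was 54.8% before start 1 and 66% before start 2.

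Agpat2 encodes a lysophosphatidate acyltransferase of the endoplasmic reticulum, and its loss in mice and people causes lipodystrophy and fatty liver. Its single probe set, 1428821_at, read 1699, 1680 and 1766 in d/d livers, against 2298, 2108 and 2258 in f/f livers. Every d/d array was below every f/f array, and both genotypes were tight, with normalized log2 means of 10.77 ± 0.050 in d/d livers and 11.11 ± 0.082 in f/f livers (SD, n = 3). The log2 difference was -0.34 ± 0.10, with d/d livers at 0.789 times the f/f level and a 95% interval of -0.58 to -0.11. It had the smallest unadjusted p of the 9 genes, 0.00997, and did not pass over all genes (limma, adjusted p = 0.384). Leaving out 1 array gave -0.39 to -0.31.

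The 3 tested genes most like Agpat2 over the 6 arrays, by Pearson correlation of normalized log2 values, were Fpgs (r = 0.996), Lrfn3 (r = 0.991) and Park7 (r = 0.990). These are the top of 13718 genes over 6 arrays that share one genotype split, and are given as a description. Fpgs, which adds glutamates to folates, averaged 566 ± 31.1 in d/d livers and 795 ± 67.3 in f/f livers (SD, n = 3). Park7, also known as DJ-1, averaged 1135 ± 27.7 in d/d livers and 1587 ± 79.9 in f/f livers, and Lrfn3 157 ± 10.8 in d/d livers and 244 ± 25.7 in f/f livers (SD, n = 3). None of these 3 genes passed (limma, adjusted p = 0.243, 0.23 and 0.174 for Fpgs, Park7 and Lrfn3).

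Agpat3, an acyltransferase of the same family, had 4 probe sets, all with negative differences. The brightest, 1450504_a_at, read 407, 396 and 432 in d/d livers, against 524, 454 and 471 in f/f livers. The genotypes did not overlap on it, though the lowest f/f array lay close to the highest d/d array. Its log2 difference was -0.22 ± 0.11 with a 95% interval of -0.46 to 0.029 (limma, adjusted p = 0.7). The other 3 probe sets had -0.14, -0.15 and -0.12, and on each of them the genotypes overlapped. Their sign held in each fit that left out 1 array except for 1433819_s_at, which had 0.024 without f/f replicate 1.

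The lipins turn phosphatidate into diacylglycerol, and none of the 3 genes of the family passed the threshold. Lpin2, whose product is abundant in mouse liver, had 4 probe sets, of which the 3 brighter ones had differences of -0.26, -0.40 and -0.39. On 1452837_at it read 163, 189 and 164 in d/d livers, against 247, 239 and 215 in f/f livers. On 1460290_at it read 173, 188 and 159 in d/d livers, against 256, 255 and 199 in f/f livers. On both, every d/d array was below every f/f array, with unadjusted p of 0.00796 and 0.021. Neither passed over all probe sets (limma, adjusted p = 0.371 and 0.533). On 1452836_at, which stood for the gene, Lpin2 read 987, 1188 and 927 in d/d livers, against 1392, 1312 and 1078 in f/f livers. There d/d replicate 2 lay above f/f replicate 3, and the difference of -0.26 ± 0.14 had a 95% interval of -0.58 to 0.06 (limma, adjusted p = 0.732). The dim probe set 1446316_at read 54.6 to 64.7 in d/d livers and 55.6 to 67.0 in f/f livers, with a difference of -0.016 ± 0.12.

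The 3 brighter Lpin2 probe sets each read lowest among the f/f arrays in f/f replicate 3, the array that stood apart. Without it their differences were -0.37, -0.47 and -0.53, and the adjusted p in limma was 0.276, 0.101 and 0.0681 for 1452836_at, 1452837_at and 1460290_at.

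The bases before the most upstream start of Lpin2 and before the start of Agpat2 are shown because these were the members with a probe set lower in d/d livers at an unadjusted p under 0.05. They lie at chr17:71183282-71183531 on the plus strand and chr2:26604418-26604667 on the minus strand of GRCm38.p6, from RefSeq, and are written 5′ to 3′ along the gene. Capitals mark the GC box GGGCGG and, in Lpin2, the E-box CACGTG.
Lpin2: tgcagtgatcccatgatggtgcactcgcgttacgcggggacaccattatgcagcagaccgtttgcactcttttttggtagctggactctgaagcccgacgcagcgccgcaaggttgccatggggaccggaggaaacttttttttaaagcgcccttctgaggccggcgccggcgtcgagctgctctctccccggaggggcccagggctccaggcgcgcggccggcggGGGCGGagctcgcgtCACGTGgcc
Agpat2: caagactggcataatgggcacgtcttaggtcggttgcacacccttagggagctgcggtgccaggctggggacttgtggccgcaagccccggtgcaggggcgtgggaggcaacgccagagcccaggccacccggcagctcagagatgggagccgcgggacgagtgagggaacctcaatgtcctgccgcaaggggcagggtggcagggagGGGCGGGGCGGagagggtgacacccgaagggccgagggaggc
The Lpin2 window holds 1 GC box and 1 E-box, the E-box starting 9 bases before the start. The Agpat2 window holds 2 overlapping GC boxes and no E-box in these letters. RefSeq lists 3 starts for Lpin2, and the windows before the other Lpin2 starts hold no E-box. Promoter windows were found for 8 of the 10 genes, 12 windows in all. The E-box was in 1 of them, beside 6.02% of all mouse promoter windows.

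Lpin1, the fasting-induced lipin, varied more between arrays than 98.2% of the genes tested, by its residual SD of 0.48 log2. On 1426516_a_at it read 1218, 1878 and 961 in d/d livers, against 664, 1044 and 1327 in f/f livers. On 1418288_at it read 1047, 1393 and 1040 in d/d livers, against 627, 1164 and 1525 in f/f livers. The genotypes overlapped on both, and within each genotype both probe sets put the same array lowest and the same array highest. The log2 differences were 0.42 ± 0.29 and 0.15 ± 0.29, with 95% intervals of -0.25 to 1.09 and -0.51 to 0.81 (limma, adjusted p = 0.8 and 0.932). The value for 1426516_a_at was 0.028 without d/d replicate 2, and 0.65 when f/f replicate 3 was left out. That for 1418288_at was -0.20 and 0.43 when f/f replicates 1 and 3 were left out in turn.

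Lpin3, the remaining lipin, had a probe set close to the dim limit that read 61.4, 57.7 and 50.6 in d/d livers, against 50.3, 48.7 and 68.0 in f/f livers. The genotypes overlapped, and the difference was 0.046 ± 0.11 (limma, adjusted p = 0.937).

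Dgat1 and Dgat2 encode unrelated enzymes that both add the last acyl chain, and Dgat2 is the one tied in mouse liver to newly made fatty acids. Dgat2 read 2042, 2234 and 2156 in d/d livers on 1422678_at, against 1621, 1877 and 1845 in f/f livers. Every d/d array was above every f/f array, with means of 2144 ± 96.7 in d/d livers and 1781 ± 140 in f/f livers (SD, n = 3). The log2 difference was 0.31 ± 0.11, or 1.24 times higher in d/d livers, with a 95% interval of 0.059 to 0.55 (limma, adjusted p = 0.508, unadjusted p = 0.021). The other probe set, 1422677_at, read 1284, 1560 and 1527 in d/d livers, against 1182, 1360 and 1182 in f/f livers. It overlapped only through d/d replicate 1 and f/f replicate 2, with a difference of 0.24 ± 0.12. Both probe sets kept a positive difference without any 1 array, from 0.20 to 0.34.

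Dgat1 read 192, 168 and 164 in d/d livers on 1418295_s_at, against 217, 202 and 173 in f/f livers. The genotypes overlapped, and the difference was -0.14 ± 0.13 with a 95% interval of -0.44 to 0.17 (limma, adjusted p = 0.845). Its other probe set, 1445229_at, lay near the dim limit at 44.9 to 50.1 in d/d livers and 48.8 to 68.9 in f/f livers, with a difference of -0.16 ± 0.11. A test of whether the differences of Dgat1 and Dgat2 are unequal was not made.

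**Figure D3:**
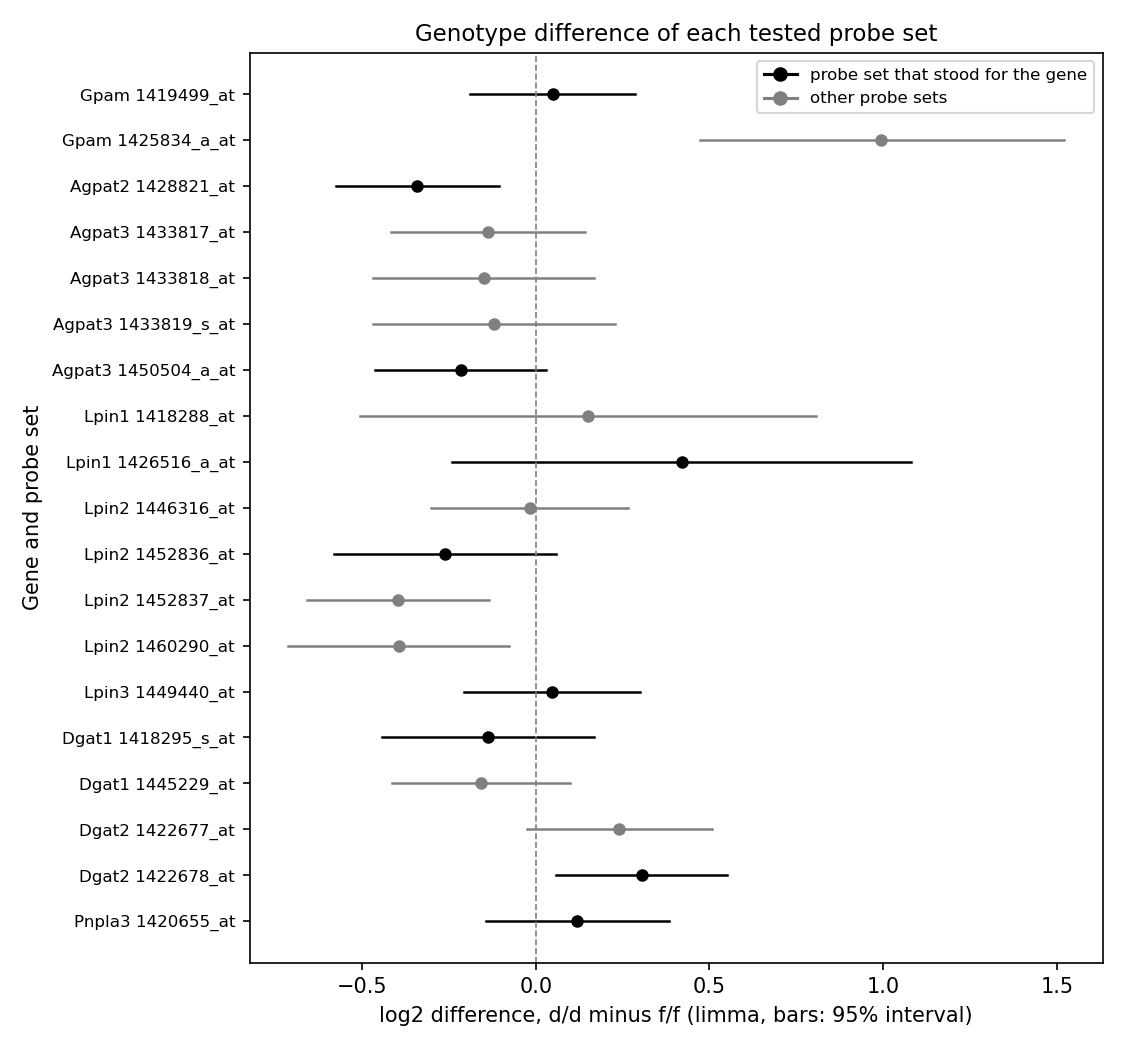
Log2 difference, d/d minus f/f, of the 19 probe sets above the dim limit, with the 95% interval of limma as bars (black, the probe set that stood for the gene; grey, the others). The intervals of Gpam 1425834_a_at and Dgat2 1422678_at lie above 0 and those of Agpat2, Lpin2 1452837_at and Lpin2 1460290_at below 0, all before adjustment.

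Mogat1 encodes a monoacylglycerol acyltransferase that makes diacylglycerol without glycerol phosphate. It read 35.6, 38.9 and 39.9 in d/d livers, against 37.5, 38.9 and 48.2 in f/f livers, under the dim limit in every array, and was not tested. Pnpla3, a lipid droplet protein known in people for its tie to fatty liver and in mice for its fall on fasting, read 59.2, 62.7 and 45.2 in d/d livers, against 51.1, 46.9 and 53.0 in f/f livers. The genotypes overlapped, and the difference was 0.12 ± 0.11 with a 95% interval of -0.14 to 0.38 (limma, adjusted p = 0.844). At intensities this close to the dim limit, fold changes are compressed.

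Calls among the member probe sets differed between the fit with array weights and the other fits. With array weights in limma f/f replicate 3 received 0.178, where the other arrays received 0.963 to 1.84, and 3 of the 19 probe sets then passed, where 1.32% of all probe sets did. These were Gpam 1425834_a_at (difference 0.98, adjusted p = 0.0389) as higher in d/d livers, and Lpin2 1460290_at (-0.48, adjusted p = 0.0396) and 1452837_at (-0.45, adjusted p = 0.0476) as lower, in limma. With that array left out altogether 0 of the 19 passed, with adjusted p of 0.168, 0.0681 and 0.101 for the same probe sets.

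Genes around the pathway were read from the same fit in 8 lists of 97 genes, of which 91 had a named probe set, 83 were tested and 8 lay under the dim limit. None of the 83 passed in limma with Benjamini-Hochberg adjustment, 8 were higher and 3 lower at an unadjusted p under 0.05 against the 7.84% of all genes given above, and 38 differences were positive and 45 negative, with a median of -0.032. The lists of relatives, supply and use had medians between -0.11 and 0.035, as the plot of lists shows.

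**Figure D4:**
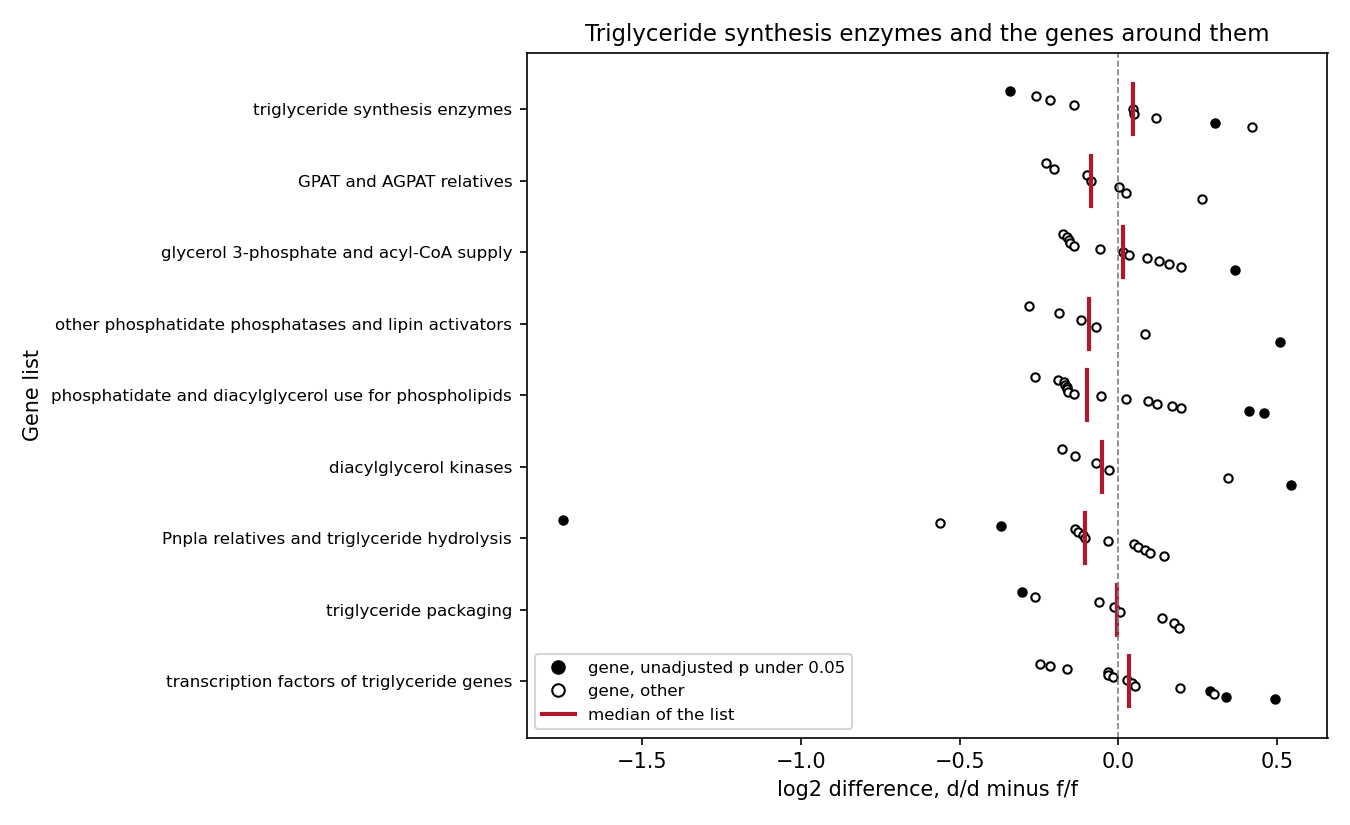
Log2 difference, d/d minus f/f, of each tested gene in the 9 triglyceride synthesis enzymes and in 8 lists around them (filled, unadjusted p under 0.05; open, the rest), with the list median as a red bar. All medians lie between -0.11 and 0.046, and G0s2, at -1.75, lies farthest from 0.

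Among the other GPAT and AGPAT enzymes, 7 of 9 were tested and 0 had an unadjusted p under 0.05. Gpat4 and Gpat3, the GPAT enzymes of the endoplasmic reticulum, had differences of -0.23 ± 0.20 and -0.20 ± 0.22, Lclat1, which acylates lysocardiolipin, 0.27 ± 0.17 and Lpcat3, which acylates lysophospholipids, 0.0024 ± 0.17. Gpat4 read 930 in f/f replicate 3, where f/f replicates 1 and 2 read 582.5 and 584.9. Lclat1 read 229.1 in that array, where f/f replicates 1 and 2 read 369.9 and 319.5. In the supply of glycerol 3-phosphate and acyl-CoA, 13 of 16 were tested. Acsl5, an acyl-CoA synthetase, averaged 1871 ± 94.7 in d/d livers and 1470 ± 213 in f/f livers (SD, n = 3), without overlap, and its difference of 0.37 ± 0.13 did not pass (limma, adjusted p = 0.494). The transporters Slc27a4 and Slc27a2 had -0.17 ± 0.11 and 0.13 ± 0.11, and the carriers Fabp1 and Dbi, for fatty acids and acyl-CoA, 0.16 ± 0.15 and -0.15 ± 0.11.

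Besides the lipins, 6 of 7 phosphatases and lipin activators were tested. Plpp2, a membrane phosphatase of lipid phosphates, averaged 299 ± 12.1 in d/d livers and 207 ± 16.7 in f/f livers (SD, n = 3). Every d/d array was above every f/f array, and the difference was 0.51 ± 0.11 (limma, adjusted p = 0.216). Its relatives Plpp5 and Plpp3 had -0.28 ± 0.16 and -0.07 ± 0.17, and Cnep1r1, a subunit of the phosphatase that activates lipins, -0.19 ± 0.18. Diacylglycerol kinases, which turn diacylglycerol back into phosphatidate, were tested for 6 of 9. Dgkq averaged 86.9 ± 6.46 in d/d livers and 55.3 ± 4.50 in f/f livers (SD, n = 3), without overlap, with a difference of 0.55 ± 0.11 (limma, adjusted p = 0.179). Dgkz and Dgke had 0.35 ± 0.18 and -0.18 ± 0.14.

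In the list for the routes that make phospholipids from phosphatidate and diacylglycerol, 16 of 19 genes were tested. At an unadjusted p under 0.05 there were 2, both higher, where 7.84% of all genes reached that p. These were Etnk1 and Chka, the kinases of ethanolamine and choline, with 0.41 ± 0.15 and 0.46 ± 0.19. Pcyt2, Chpt1 and Pemt, further along the same routes, had -0.16 ± 0.11, -0.16 ± 0.12 and -0.14 ± 0.11. All Pnpla relatives and hydrolysis genes, 13 of 13, were tested, with 2 lower at an unadjusted p under 0.05, beside 7.84% of all genes. G0s2, an inhibitor of the lipase ATGL, averaged 297 ± 130 in d/d livers and 981 ± 194 in f/f livers (SD, n = 3), and Mgll, which splits monoacylglycerol, 591 ± 10.7 in d/d livers and 782 ± 152 in f/f livers. Neither passed (limma, adjusted p = 0.125 and 0.605). Abhd5, the activator of ATGL, had -0.56 ± 0.34, and Aadac and Ces1d, hydrolases of the endoplasmic reticulum, 0.14 ± 0.12 and 0.051 ± 0.11. For Abhd5 the higher f/f mean rests on f/f replicate 3, at 517.3, where f/f replicates 1 and 2 read 205.2 and 211.4.

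For packaging, 8 of 9 genes were tested. Fitm2, which helps droplets form, had -0.30 ± 0.13 and Cidec -0.26 ± 0.12, while Mttp and Apob, needed for lipoprotein assembly, had 0.18 ± 0.12 and 0.14 ± 0.097 and Cideb -0.059 ± 0.098. Among transcription factors that act on triglyceride genes, 14 of 15 were tested. At an unadjusted p under 0.05 there were 3, all higher in d/d livers, where 7.84% of all genes reached that p. Mlxipl, which encodes ChREBP, averaged 403 ± 27.7 in d/d livers and 281 ± 23.2 in f/f livers (SD, n = 3), with a difference of 0.49 ± 0.11. Srebf1 averaged 381 ± 38.0 in d/d livers and 299 ± 48.2 in f/f livers, with 0.34 ± 0.14, and Nr3c1, the glucocorticoid receptor, 504 ± 32.4 in d/d livers and 409 ± 23.6 in f/f livers, with 0.29 ± 0.10. For all 3 every d/d array was above every f/f array, as in 7.86% of all genes. None passed (limma, adjusted p = 0.206, 0.59 and 0.52). Creb3l3 and Hnf4a had -0.21 ± 0.099 and -0.017 ± 0.11. With array weights 4 of the 83 genes passed, where 1.56% of all genes did: Dgkq, Mlxipl and Plpp2 as higher and G0s2 as lower.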

How the data were processed

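Liver RNA was measured on 6 Affymetrix arrays, with biotin-labelled RNA per the labels' protocols. The authors deposited 1 linear intensity for each probe set; their summarization, background correction and scaling are not given in the sources used here. Probe sets were named through the platform annotation, which gave 34945 of 45101 a single symbol, and promoter sequences are from RefSeq (GRCm38.p6). Intensities were used as log2(intensity + 16) and quantile normalized without the 64 control probe sets, since array medians differed by 0.185 log2. The brightest probe set stood for each gene, the dimmest 40% of probe sets by mean signal were dropped, and limma 3.58.1 (lmFit, eBayes; R 4.3.3) compared the genotypes over all genes, or over all probe sets, with Benjamini-Hochberg adjustment and a threshold of 0.05. Figures used matplotlib 3.10.9 and tables pandas 2.3.3 in Python 3.11.15. The fit was tested on simulated data. Alternatives covered scaling, no dim filter, the mean over a gene's probe sets, a trended robust variance, array weights, pseudocounts of 1 and 64, the replicate number as a block and each array left out. From each surrounding list the genes named are the 3 with the smallest unadjusted p and the 2 brightest. The members and lists were chosen with earlier results of these data known. Deviations of same-numbered arrays correlated at -0.0032, -0.14 and -0.47. With 3 arrays per genotype, 1 of them unlike the rest, these values cannot tell whether the numbers pair the arrays. The main fit did not use them as pairs.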

Additional observations from a re-analysis of the deposited data

How the results depend on the processing

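Of the 9 genes tested, 0 passed under each of the 15 alternatives, and of their 19 probe sets 0 passed except with array weights, which gave 3. Other pathway genes past the threshold numbered 0 except with array weights, which gave 4. The count of all genes past the threshold, 13, became 20 with the mean of a gene's probe sets, 23 with a trended and robust variance, 214 with array weights and 1 with the replicate number as a block, and with 1 array left out ran from 4 (d/d replicate 1) to 91 (f/f replicate 3); the cause was not tested. The replicate block changed no other call. Signs turned in fits that left out 1 array for 4 probe sets near 0: Gpam 1419499_at ran from -0.0043 without f/f replicate 3 to 0.094, Lpin1 1418288_at from -0.20 without f/f replicate 1 to 0.43, Lpin2 1446316_at from -0.11 to 0.074 without f/f replicate 2, and Agpat3 1433819_s_at from -0.24 to 0.024 without f/f replicate 1. Averaged over its 2 probe sets, Gpam had 0.52 (limma, adjusted p = 0.324), where its alternatives reached adjusted p from 0.324 to 0.999. Leaving out 1 array moved Gpam 1425834_a_at between 0.77 and 1.25. Mogat1, Lpin3 and Pnpla3 lie near the dim limit, where signal over background limits what can be seen.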
